A study of Mus musculus with 4 samples.

Results

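The mouse genes described here are protein-coding genes that still carry a provisional "Gm" symbol, the serial name given to a predicted mouse gene model. They were selected on 3 criteria from the deposited count table, namely a protein-coding biotype, a symbol made of Gm and digits, and a mean of at least 1 CPM over all 4 samples (CPM is the count scaled to a fixed total per sample). Of 1535 such Gm genes in a table of 54532 genes, 118 met the level and 1417 did not, of which 1124 had 0 counts in every sample. The members were thus chosen by their mean CPM, and levels are given as a description. Just inside the threshold were Gm8251, Gm29609 and Gm10778 with mean CPM of 1.04, 1.05 and 1.05, and just outside it were Gm3854, Gm3550 and Gm49027 with 0.989, 0.916 and 0.910. Of the members, 5 reached a mean of 1 CPM only in the IFNα samples and 4 only in the controls. RefSeq lists 88 of the 118 by name, 8 of them under another symbol, such as Gm6904 as Phf11, Gm340 as Lcor, Gm14085 as Slc28a2b and Gm21887 as Erdr1.

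RNA was sequenced from CD8+ T cells of the spleen of C57BL/6 mice, purified as naive cells with magnetic beads before stimulation. The IFNα group was stimulated with anti-CD3 and anti-CD28 together with IFNα at 2000 U/ml for 48 hours (a1 and a2, here IFNα replicates 1 and 2). The control group had anti-CD3 and anti-CD28 alone for 48 hours (C1 and C2, here control replicates 1 and 2), so the cells of both groups were activated. It is not stated whether the replicates of a group are different animals or different cultures. The p-values therefore reflect only how far these samples vary, and that variation may be technical. In bulk RNA of this kind, fewer cells of a type and less RNA per cell cannot be told apart.

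Total counts were 16096121 and 17676062 in the IFNα samples, against 17375960 and 16955366 in the controls. The 7 CD8 T cell markers summed to 3124 and 3216 CPM with IFNα, against 3635 and 3038 CPM in controls, which fits the label. Markers of other cells were low in every sample. The 6 B cell markers summed to 13.2 and 12.7 CPM with IFNα, against 20.1 and 19.2 CPM in controls. The 10 myeloid and dendritic markers summed to 17.0 and 18.5 CPM, against 30.4 and 30.1 CPM, with 6 of the 10 tested and Lyz2 alone called lower (log2 fold change -1.46). The CD4, NK and erythroid and platelet markers summed to at most 7.25 CPM in any sample. No marker of these lists was at 0 in every sample, and their part in the results below was not tested. The IFNα samples were closer to each other than the control samples were. The squared difference between the samples of a group was 3.79 times that of counting error with IFNα, against 43.8 times in controls.

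Type I interferons such as IFNα bind a receptor found on nearly all cells and switch on antiviral genes, many of which carry an interferon-stimulated response element (ISRE) in their promoters. Many of these genes stand in clusters of close copies, and the mouse has far more of them than humans in a few families. One is the immunity-related GTPases (IRG), proteins that attack the membranes of vacuoles in which intracellular parasites live. Other such families are the very large inducible GTPases, the Phf11 genes with a PHD finger, and the non-classical H2-T genes of the major histocompatibility complex (MHC). Members of such copied families are often left with a provisional name.

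A promoter sequence (250 bases before to 50 after the gene's start, from RefSeq, build GRCm38.p6) was at hand for 41 of the 118 members. The ISRE core was searched on both strands as GAAA, any 2 bases and GAAA (GAAA-NN-GAAA). It was present in the promoters of 5 of the 41 members (12.2%), against 1131 of 32851 promoters of all genes (3.44%) and 57 of 127 listed interferon-stimulated genes with a promoter (44.9%). On the gene's own strand, 3 of the 41 members held it (7.32%, against 1.74% of all promoters). The 5 were Gm12185 and Gm6034, which have a listed interferon-stimulated gene within 250 kb, and Gm14085, Gm12216 and Gm7072, which have none. The lists leave out Irf1 (chr11:53770014-53778374), which lies near Gm12216 and had a log2 fold change of -0.24. In 2 of the 5 the first transcribed bases of the RefSeq promoter were found in the member's transcript, and in 3 (Gm12185, Gm12216 and Gm7072) they were not. Over all 45 promoters of the 41 members they were found in 16, so many of these windows may not be the start of the counted gene model. A match is only a run of letters, and binding was not measured. The promoters below are shown because they compare a called member that holds the core, its neighbour in the same cluster, and a member that shares its promoter with an MHC gene. The capitals mark the core, or in Gm5431 the stretch that aligned to the core of Gm12185, and each sequence reads 5′ to 3′ on the gene's strand.
Gm12185, chr11:48927133-48927432, minus strand: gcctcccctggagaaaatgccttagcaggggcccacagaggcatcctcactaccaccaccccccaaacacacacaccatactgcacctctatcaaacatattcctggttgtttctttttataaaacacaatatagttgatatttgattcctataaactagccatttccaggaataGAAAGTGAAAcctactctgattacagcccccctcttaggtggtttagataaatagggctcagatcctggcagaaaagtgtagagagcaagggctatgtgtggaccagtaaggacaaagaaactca
Gm5431, chr11:48902103-48902402, minus strand: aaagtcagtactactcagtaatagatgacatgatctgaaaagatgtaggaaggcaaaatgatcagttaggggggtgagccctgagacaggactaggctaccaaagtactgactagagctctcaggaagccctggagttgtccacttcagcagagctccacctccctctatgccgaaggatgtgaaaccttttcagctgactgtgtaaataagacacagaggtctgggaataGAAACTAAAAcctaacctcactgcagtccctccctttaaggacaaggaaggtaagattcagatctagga
Gm6034, chr17:36042711-36043010, plus strand: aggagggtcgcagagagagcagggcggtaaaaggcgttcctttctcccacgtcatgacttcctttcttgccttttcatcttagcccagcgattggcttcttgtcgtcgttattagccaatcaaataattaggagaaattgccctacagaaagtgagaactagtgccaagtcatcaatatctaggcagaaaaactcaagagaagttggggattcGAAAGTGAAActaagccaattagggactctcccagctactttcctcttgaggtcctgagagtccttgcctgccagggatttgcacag

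In Gm12185 the core began 75 bases before the RefSeq start, which lies inside the longer span of the deposited gene model. In Gm5431 the aligned stretch began 19 bases before the start and read GAAACTAAAA. Counted from 1 at the first base of the core, it differed from GAAAGTGAAA of Gm12185 by G5C and G7A, and 27 of 40 bases around both sites were identical. By these letters Gm5431 did not match the searched core. In Gm6034 the core began 37 bases before the start. The promoter of Gm6034 shared 282 bases with that of H2-T22, which is read from the opposite strand, and the H2-T22 promoter held the core as well. The promoter of Gm12253, another called member, held no match.

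With IFNα, 5 of the 118 members were higher than in controls and none was lower (edgeR quasi-likelihood test, adjusted p under 0.05 over 14417 genes tested, and a log2 fold change over 1 in size). They were Gm12185, Gm5431, Gm4951, Gm6904 and Gm12253. The 5 calls are 4.24% of the members, beside 1.28% of all tested genes called higher, and 0.139% of all tested genes were called lower. Among the 5, Gm12253 had 0 counts in both controls and met the mean CPM only through the IFNα samples. Without the adjustment, 10 members were higher and 9 lower at p under 0.05 (8.47% and 7.63%), against 5.72% and 5.55% of all tested genes. DESeq2, the likelihood ratio test and the exact test called 1 member lower, Gm47283, and limma-voom called 0. Leaving out either control added calls in both directions. Such a fit rests on a single control, and the share of all tested genes called in it was not counted. The median log2 fold change of the 118 was -0.05 (quartiles -0.30 and 0.28), beside -0.01 over all tested genes (quartiles -0.23 and 0.21). In 27 members (22.9%) both IFNα samples lay above both controls, against 16.2% of all tested genes, and in another 27 both lay below, against 30.8%. Most of these unnamed genes were thus not called.

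**Figure D1:**
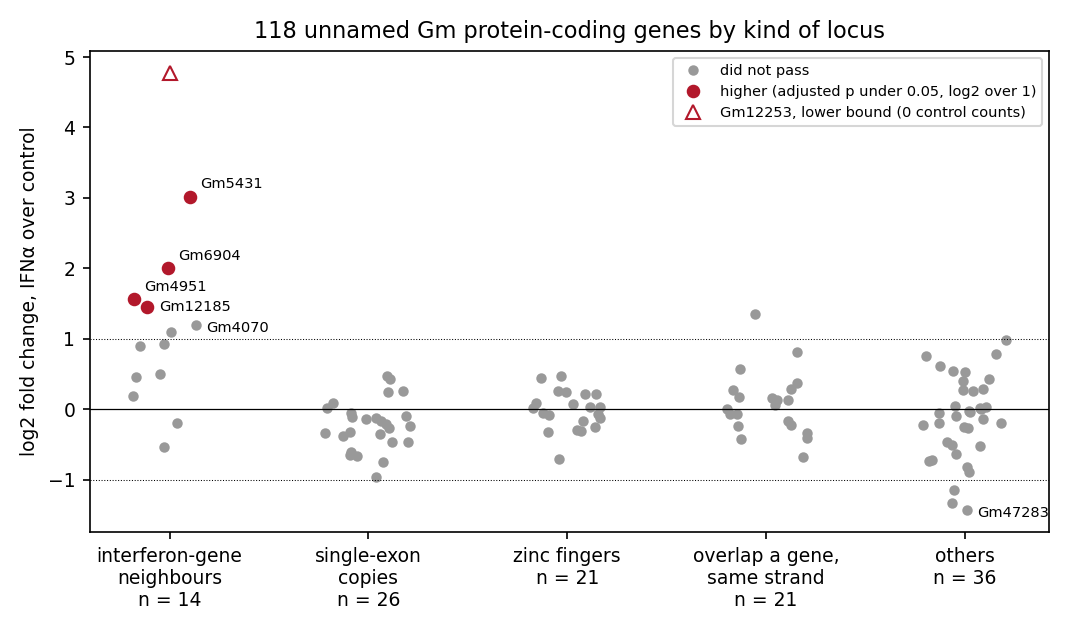
Log2 fold change of each of the 118 members, IFNα over control, with the members set out by the kind of locus (points are spread sideways for legibility). Filled red points and the open triangle are the 5 members called higher, all of them among the 14 interferon-gene neighbours. The triangle, labelled as a lower bound, is the ratio of Gm12253 to a floor of 3 counts over both controls, where it had 0 counts. Dotted lines mark log2 fold changes of 1 and -1.

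The calls were then set against the position of the members. A gene of 12 lists of interferon-stimulated families lay within 250 kb of 14 members (11.9%), against 604 of 11585 tested protein-coding genes (5.21%). At 100 kb the count of members was 11 and at 500 kb it was 16. All 5 called members were among the 14 (35.7%), and 4 of them were among the 11 at 100 kb. The 100 kb window leaves out Gm12253, the called member that met the mean CPM only through the IFNα samples. Of the other 104 members, 0 were called higher by edgeR, DESeq2 or limma-voom. At an unadjusted p under 0.05 (edgeR), 2 of the 104 had a higher level and 8 a lower one, beside 5.72% and 5.55% of all tested genes. The 0 called higher did not hold with a crossed pairing of the replicate numbers, added after seeing the data, which called Gm340 and Gm4707 higher. Nor did it hold when a control was left out. Gm10521, Gm13199, Gm340, Gm38394, Gm9821 and Gm9938 were called higher without control replicate 2, and Gm4707 without control replicate 1. These fits rest on a single control, and the share of all tested genes called in them was not counted. Among 491 other protein-coding genes that stand within 250 kb of a listed gene but are not listed, 8 were called higher (1.63%), and among 137 listed genes 83 were (60.6%). The median log2 fold change was 1.01 for the 14 members, -0.07 for the other 104, -0.04 for the 491 neighbours and 1.74 for the listed genes. The 491 leave out all listed genes, whereas the 14 include unlisted copies of listed families, such as Gm5431, Gm6904 and Gm4070. The shares of the 14 and the 491 are thus not of like sets. The lists were drawn up with earlier results of these samples known, so these shares are a description.

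**Figure D2:**
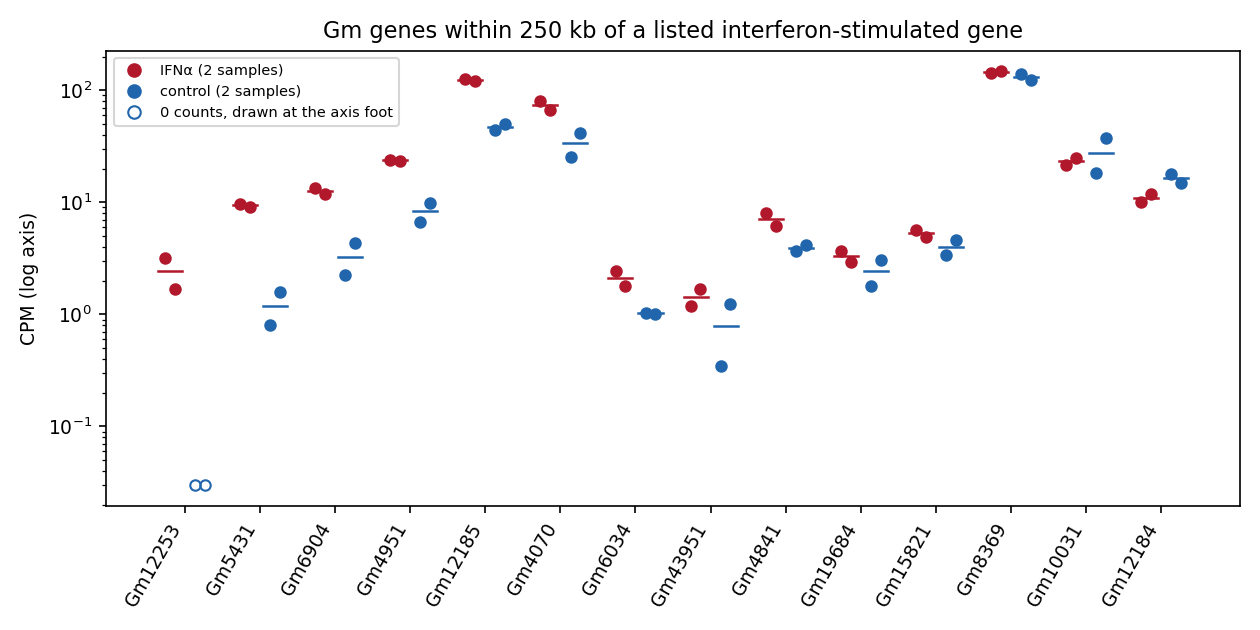
CPM in each sample (log axis) of the 14 members within 250 kb of a listed interferon-stimulated gene, in falling order of fold change. Red points are the 2 IFNα samples and blue points the 2 controls, bars are group means, and open points stand for 0 counts, drawn at the axis foot; Gm12185 had 127 and 122 CPM with IFNα, against 44.1 and 49.95 CPM in controls.

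Gm12185 and Gm5431 belong to the IRG cluster of chromosome 11, where RefSeq also calls them Irgb2b1 and Irgb9b8, names used for tandem IRG proteins. Gm12185 (chr11:48904656-48992226, minus strand, GRCm38, ENSMUSG00000048852) had 127 and 122 CPM with IFNα, against 44.1 and 49.95 CPM in controls. The groups lay well apart, and the samples of each were close. The log2 fold change was 1.45 (SE 0.12, adjusted p = 0.00484, edgeR), the smallest adjusted p among the members. The span of Gm12185 overlaps Psme2b, Tgtp1 and 9930111J21Rik1 on the same strand and Olfr56 on the other, so its reads may include those of neighbours. Its coding sequence was 92.5% identical to that of 9930111J21Rik1 over its whole length.

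Gm5431 (chr11:48887422-48902214, minus strand, ENSMUSG00000058163) was scarce without IFNα. It had 9.63 and 9.16 CPM with IFNα, against 0.81 and 1.59 CPM in controls, that is 155 and 162 counts against 14 and 27. The log2 fold change was 3.02 (SE 0.33, adjusted p = 0.0130, edgeR), and the groups did not overlap. Among the called members with counts in the controls it had the largest fold. Its coding sequence was 97.3% identical to 9930111J21Rik1, which had 68.7 and 69.7 CPM with IFNα, against 10.5 and 32.6 CPM in controls. That named copy had a log2 fold change of 1.74 and did not pass (adjusted p = 0.231), and its controls differed by a wide margin. The sources do not say how multi-mapped reads were counted, and reads of copies this close are uncertain.

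Gm4951 and Gm4841 lie in the second IRG cluster, on chromosome 18, and RefSeq gives them the synonyms Ifgga2 and Ifgga3. Gm4951 (chr18:60212080-60247820, plus strand, ENSMUSG00000073555) had 23.9 and 23.4 CPM with IFNα, against 6.73 and 9.85 CPM in controls. Its log2 fold change was 1.56 (SE 0.20, adjusted p = 0.0245, edgeR), and the groups lay apart. Its coding sequence was 86.1% identical to Iigp1, an effector IRG protein that oligomerises on parasite vacuoles. Iigp1 itself had 463 and 460 CPM with IFNα, against 238 and 276 CPM in controls, a log2 fold change of 0.90 that passed the adjusted p (0.0445) but not the fold threshold. Gm4841, 77.5% identical to F830016B08Rik, had 8.01 and 6.17 CPM with IFNα, against 3.68 and 4.19 CPM in controls. The groups of Gm4841 did not overlap, yet its log2 fold change of 0.89 did not pass (adjusted p = 0.217).

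Set beside them, the 11 named IRG genes had a median log2 fold change of 0.81, and 0 of 11 passed both thresholds in edgeR. Of these, 7 were higher at an unadjusted p under 0.05, 2 (Irgm1 and Iigp1) passed the adjusted p alone, DESeq2 called 1, limma-voom called 0, and the likelihood ratio and exact tests called 3 each. Irgm1, a regulatory IRG protein that guards the cell's own membranes and lies 15.7 kb from Gm5431 and 32.97 kb from Gm12185, had 428 and 445 CPM with IFNα, against 251 and 239 CPM in controls (log2 fold change 0.88). Of the other named genes of the chromosome 11 cluster, 9930111J21Rik2 had 137 and 149 CPM with IFNα, against 23.3 and 59.5 CPM in controls (log2 fold change 1.85, adjusted p = 0.139). Like 9930111J21Rik1 at 1.74, its fold was above that of Gm12185 at 1.45, but its controls were wide apart. Tgtp1, Tgtp2 and Ifi47 had 0.26, 0.43 and 0.27, and none of the 3 passed. Tgtp1 and Ifi47 were abundant in the controls (129 to 131 CPM for Tgtp1, and 445 to 536 CPM for Ifi47). The difference in fold between the unnamed and the named genes of the clusters was not tested.

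**Figure D3:**
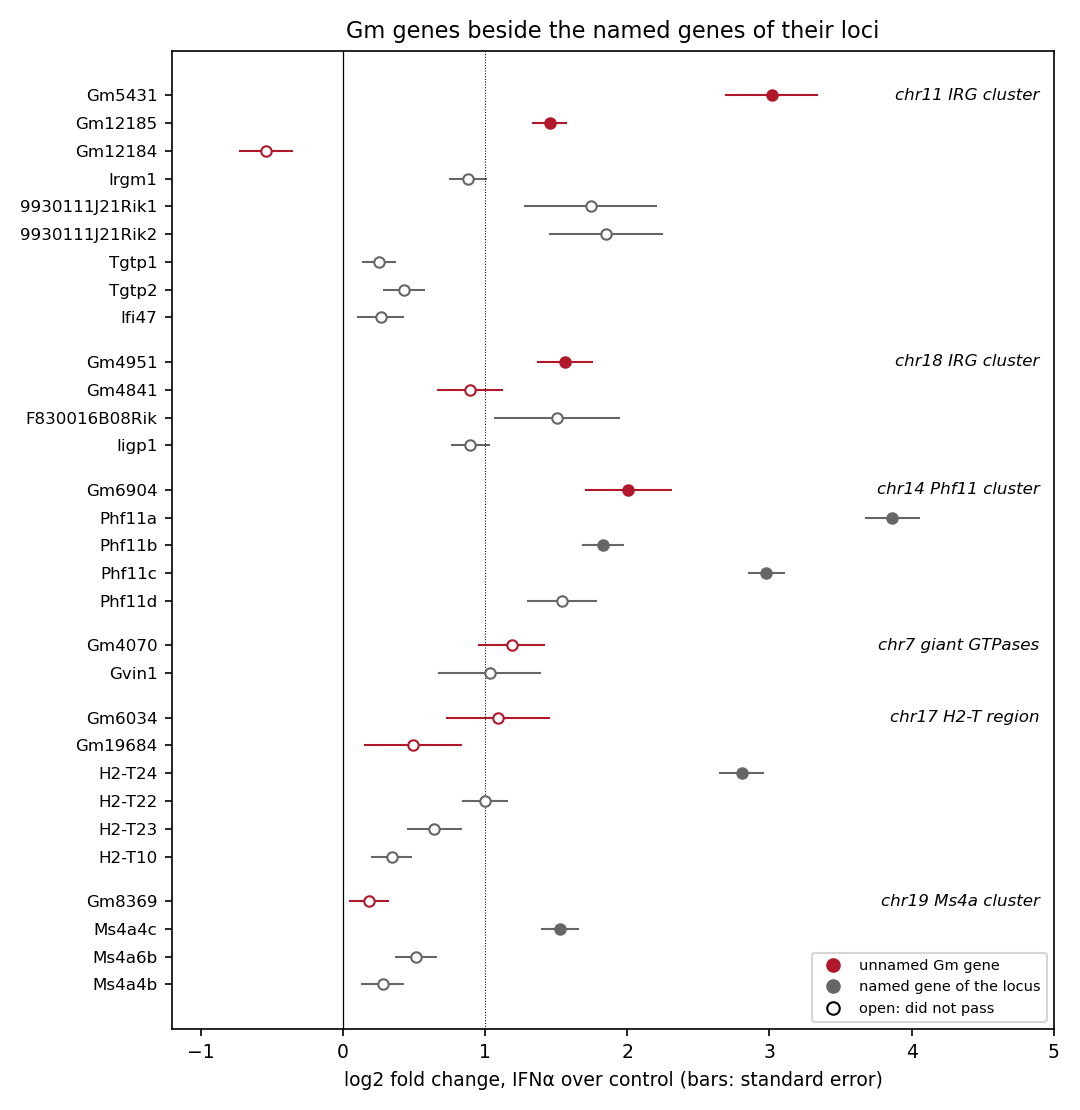
Log2 fold change, IFNα over control, with its standard error for the unnamed Gm genes (red) and named genes (grey) of 6 loci. Filled points passed the test and open points did not; in the IRG cluster of chromosome 11, Gm5431 (3.02) and Gm12185 (1.45) were filled, while 9930111J21Rik1 and 9930111J21Rik2 (1.74 and 1.85, with wide errors) and Tgtp1, Tgtp2 and Ifi47 (0.26 to 0.43) were open.

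Gm12253 (chr11:58432559-58441622, plus strand, ENSMUSG00000058287) is the member that depended most on the IFNα samples for its mean level. It had 51 and 30 counts with IFNα (3.17 and 1.70 CPM), against 0 and 0 counts in controls. Taking 3 counts over the 2 controls as a floor, the level with IFNα was 27.4-fold that floor. From the counts themselves the exact 95% lower limit of the fold was 21.8 (counting error only), and the adjusted p was 0.0441 (edgeR). With library totals in place of TMM Gm12253 missed the test (adjusted p = 0.0521). Irgm2 and Igtp are the listed genes nearest to it, with the closest end at 210 kb. They had log2 fold changes of 0.81 and 0.26, neither of which passed. Sh3bp5l, the nearest named tested protein-coding gene on that side at 84.8 kb, had a log2 fold change of -0.07. On the other side, 2810021J22Rik at 426 kb likewise had -0.07. Only 7.42% of its coding sequence aligned to another named coding sequence, and this search found no likeness to the IRG genes.

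Gm6904 (chr14:59244441-59260216, minus strand, ENSMUSG00000090881), which RefSeq names Phf11, opens the Phf11 cluster of chromosome 14. It had 13.4 and 12.0 CPM with IFNα, against 2.24 and 4.31 CPM in controls. The log2 fold change was 2.01 (SE 0.30, adjusted p = 0.0445, edgeR), with no overlap between the groups. It missed the test with library totals in place of TMM and with a filter at a mean CPM of 5 (adjusted p = 0.0625 under both). Its coding sequence was 96.6% identical to that of Phf11a, whose log2 fold change was 3.86. Phf11b and Phf11c were also called higher (1.83 and 2.98), while Phf11d had 1.54 and just missed the test (adjusted p = 0.0509). Rcbtb1, on the other side of Gm6904 at 7.18 kb, had a log2 fold change of 0.01.

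The remaining 9 neighbours of interferon-stimulated genes did not pass. Gm4070, of the very large inducible GTPases and given the synonym VLIG-1 by RefSeq, had 80.5 and 67.3 CPM with IFNα, against 25.6 and 41.6 CPM in controls. The groups were apart, but the log2 fold change of 1.19 had an adjusted p of 0.106. It passed under 9 of 15 alternatives, among them DESeq2 (adjusted p = 8.98e-05), and its adjusted p under limma-voom was 0.0874. The coding sequence of Gm4070 was 99.96% identical to that of Gvin1, 203 kb away, so reads of the pair can hardly be kept apart. Gvin1 had 84.9 and 80.4 CPM with IFNα, against 24.98 and 59.2 CPM in controls (log2 fold change 1.03, adjusted p = 0.379).

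In the MHC on chromosome 17, Gm6034 (synonym H2-gs14-2) had 2.42 and 1.81 CPM with IFNα, against 1.04 and 1.003 CPM in controls. Its log2 fold change of 1.09 did not pass (adjusted p = 0.345), with only 35 counts over both controls. H2-T22, with which it shares a promoter region, had 512 and 500 CPM with IFNα, against 286 and 236 CPM in controls, and just missed the test (adjusted p = 0.0577). Gm19684, whose coding sequence was 98.3% identical to that of Gm6034, had 3.66 and 2.94 CPM with IFNα, against 1.78 and 3.07 CPM in controls, so that its groups overlapped. Gm15821 lies opposite Tap2, a subunit of the peptide transporter that loads MHC class I, and had 5.65 and 4.92 CPM with IFNα, against 3.40 and 4.60 CPM in controls (log2 fold change 0.45, adjusted p = 0.556). Without known strand settings its reads and those of Tap2 cannot be told apart.

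Gm8369, in the Ms4a cluster of membrane proteins on chromosome 19, had the highest CPM of the 14, not scaled for length, with 142 and 147 CPM with IFNα, against 140 and 122 CPM in controls. Its log2 fold change was 0.19 (adjusted p = 0.633), while in the same cluster Ms4a4c was called higher at 1.53. Ms4a4b, its closest named relative, Ms4a6b and Ms4a6c had log2 fold changes of 0.28, 0.51 and -0.21, none of which passed. Gm43951, near Xaf1, had 1.18 and 1.70 CPM with IFNα, against 0.35 and 1.24 CPM in controls, and its groups overlapped. Gm10031 and Gm12184 are single-exon genes that resemble a named gene elsewhere rather than their neighbours, with 99.9% identity to Csnk2a1, a catalytic subunit of casein kinase, and 100% to Cdk2ap1. Gm10031 had 21.4 and 25.1 CPM with IFNα, against 18.4 and 37.2 CPM in controls. Gm12184, at the edge of the IRG cluster, had 10.13 and 11.8 CPM with IFNα, against 18.01 and 14.9 CPM in controls, with a log2 fold change of -0.54 that did not pass (adjusted p = 0.377). Among the 14 it was the only one with both IFNα samples below both controls, against 30.8% of all tested genes. In 10 of the 14 both IFNα samples lay above both controls, against 16.2% of all tested genes.

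The other 104 members fell into 4 kinds by structure and sequence. The kind with the highest summed CPM was that of 26 single-exon genes whose coding sequence, or transcript in 7 of them, matched a named gene at 97.1% to 100% identity, 8 of them at 100%. They have the form of processed copies of an mRNA, and 6 of the 26 resemble ribosomal proteins. Together they held 850 and 929 CPM with IFNα, against 1280 and 940 CPM in controls. The highest mean CPM of any member was in Gm6793, a copy of Hnrnpa3, with 283 and 278 CPM with IFNα, against 333 and 298 CPM in controls (log2 fold change -0.12, adjusted p = 0.734). Gm10282, a copy of the nucleosome-binding Hmgn2, had 98.7 and 124 CPM with IFNα, against 159 and 116 CPM in controls, and the groups overlapped. Gm10036, which resembles Rpl11 of the large ribosomal subunit, had 84.4 and 103 CPM with IFNα, against 176 and 90.4 CPM in controls, and control replicate 1 stood far above the rest. Gm2000 resembles Rpl35 and had 56.0 and 67.7 CPM with IFNα, against 80.6 and 62.6 CPM in controls.

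Gm11808 matched the coding sequence of Kxd1 at 100% and had 71.3 and 77.8 CPM with IFNα, against 144 and 95.7 CPM in controls. Its groups did not overlap, but the log2 fold change of -0.64 did not pass (adjusted p = 0.380). Per kilobase of gene length, the levels of Gm10036, Gm11808, Gm6793 and Gm2000 led all members, at a mean of 211, 193, 186 and 149.9 RPKM. The median log2 fold change of the 26 copies was -0.22, and 0 were called by edgeR. At an unadjusted p under 0.05, 0 were higher and 1 lower, beside 5.72% and 5.55% of all tested genes. For the 25 copies whose named relative was tested, the median was -0.20 for the copies and -0.26 for the relatives, and 0 of the relatives were called. Across these 25 pairs the Pearson correlation of the log2 fold changes was 0.68, given as a description, since both genes of a pair may take the same reads and all pairs share the 4 libraries.

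**Figure D4:**
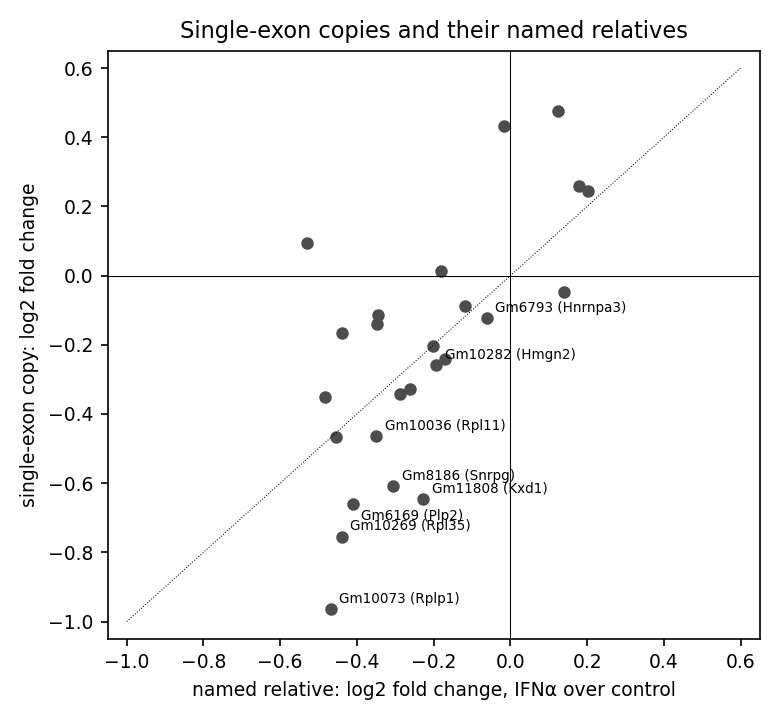
Log2 fold change, IFNα over control, of 25 single-exon copies (vertical axis) and of the named gene each one resembles (horizontal axis), with labels as copy (relative) and a dotted line where both are equal. Most points lie below 0 on both axes, with a median of -0.20 for the copies and -0.26 for the relatives, and none passed the test.

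The difference between the control samples also ran unevenly over these kinds of gene. Between the IFNα samples the median log2 ratio (replicate 2 over replicate 1) was 0.18 in the copies and -0.09 in the zinc-finger genes. Control replicate 1 was above control replicate 2 in 21 of the 26 copies, with a median log2 ratio of -0.40 (replicate 2 over replicate 1). In 21 zinc-finger members the sign was mostly the other way, with replicate 1 above replicate 2 in 4 of 21 and a median log2 ratio of 0.25. The copies had a median gene length of 0.755 kb and the zinc-finger genes one of 2.86 kb. Of all 118 members, 2 differed more than 2-fold (log2 ratio over 1 in size) between the IFNα samples, against 17 between the controls. The controls also differed over genes at large (43.8 times counting error), and the same counts over all tested genes were not taken. They are thus not shown to be particular to these members. Which feature of the genes or samples goes with this was not tested.

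**Figure D5:**
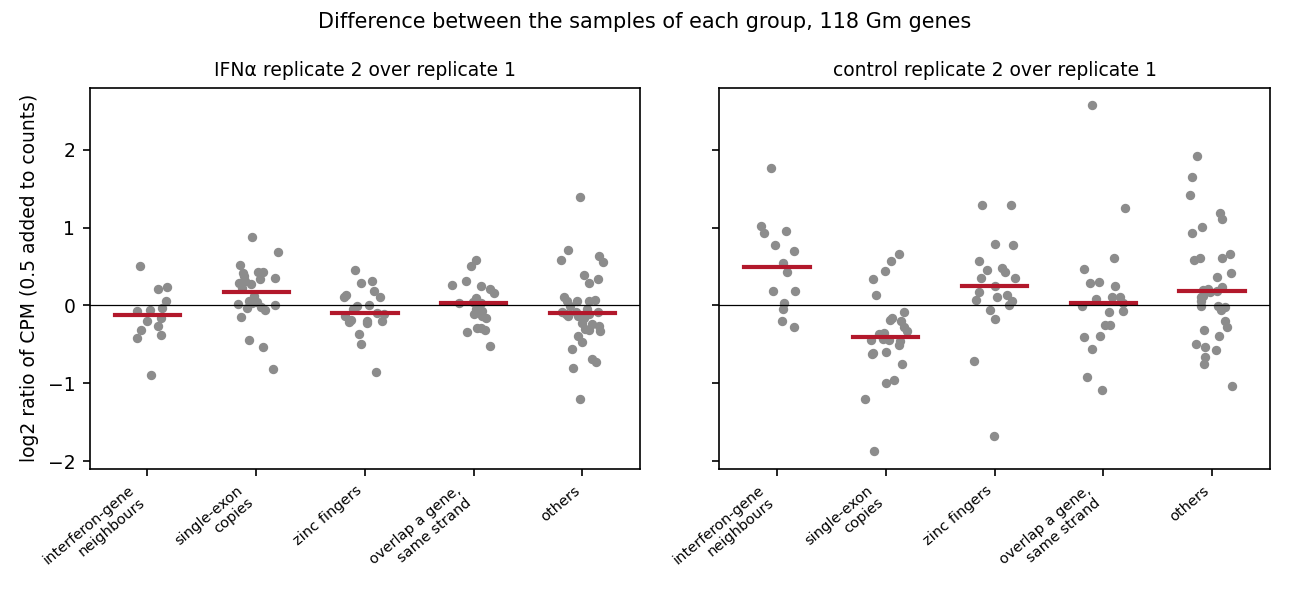
Log2 ratio of CPM between the samples of one group for the 118 members by kind of locus, replicate 2 over replicate 1 (0.5 added to counts), with IFNα on the left and control on the right, and red bars at the medians. The controls spread more widely, and the single-exon copies (median -0.40) lay on the other side of 0 from the zinc-finger genes (0.25).

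Of the 21 zinc-finger members, 7 lie in one stretch of chromosome 2 (175129493 to 177957297). The 21 carry the deposited zinc-finger label or have a named zinc-finger gene as closest named relative. Among all 118 members 16 carry that label, so some of the 21 rest on likeness of sequence alone. Their levels were low, with means of 1.05 to 20.6 CPM and a sum of 145 and 136 CPM with IFNα, against 133 and 158 CPM in controls. Their log2 fold changes ran from -0.70 to 0.47 with a median of 0.03. None was called by edgeR, and 0 reached an unadjusted p under 0.05 in either direction, beside 5.72% higher and 5.55% lower of all tested genes. The highest by CPM, Gm7072, had 21.3 and 18.4 CPM with IFNα, against 20.4 and 22.1 CPM in controls. Its promoter held the ISRE core on the other strand.

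Another 21 members overlap a gene on the same strand, and 14 of these overlap at least 2 genes, as a transcript that reads through from one gene to the next would. Gm28043 spans Rnf8 and Cmtr1, Gm28053 spans Gimap1, Gimap5 and Gimap7, and Gm21992 spans Rbm14 and Rbm4. Reads in the shared exons cannot be given to one gene with certainty. The highest by CPM was Gm16286, which overlaps the splicing factor gene Txnl4a, with 141 and 145 CPM with IFNα, against 190 and 160 CPM in controls (log2 fold change -0.24, adjusted p = 0.584). Gm49336, which overlaps the nucleoporin gene Nupl1, had 82.9 and 74.3 CPM with IFNα, against 67.8 and 80.9 CPM in controls. Gm4707, inside Smchd1, had the largest log2 fold change of the kind at 1.36, from 3.42 and 3.11 CPM with IFNα, against 1.78 and 0.83 CPM in controls (adjusted p = 0.319). Gm38394, which overlaps Zc3h11a and Zbed6, showed the widest split between controls, with 13.2 and 15.3 CPM with IFNα, against 2.88 and 17.2 CPM in controls. The median of the 21 was 0.06, and 0 were called by edgeR. At an unadjusted p under 0.05, 1 was higher and 1 lower, beside 5.72% and 5.55% of all tested genes.

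The last 36 members shared no such feature and had a median log2 fold change of -0.07, with 0 called by edgeR. At an unadjusted p under 0.05, 1 was higher and 6 lower, beside 5.72% and 5.55% of all tested genes. Gm14085, or Slc28a2b, is 94.7% identical to the nucleoside transporter gene Slc28a2. It had 146 and 141 CPM with IFNα, against 175 and 234 CPM in controls, with no overlap (log2 fold change -0.46, adjusted p = 0.368). In its relative Slc28a2 the log2 fold change was -0.31 and did not pass. The most negative value of all members was that of Gm47283 on chromosome Y, with 2.61 and 3.85 CPM with IFNα, against 8.86 and 9.26 CPM in controls. Its log2 fold change of -1.43 did not pass (SE 0.25, adjusted p = 0.0763, edgeR), although both controls lay above both IFNα samples. The coding sequence of Gm47283 was identical to that of Gm21887 on chromosome X, which RefSeq names Erdr1, and Gm21887 had 5.84 and 7.41 CPM with IFNα, against 7.42 and 6.13 CPM in controls. How multi-mapped reads were counted is not stated, so the reads of this pair can hardly be kept apart. Gm340, or Lcor, a transcriptional corepressor gene, had 28.6 and 27.0 CPM with IFNα, against 8.0 and 21.4 CPM in controls (log2 fold change 0.98, adjusted p = 0.458).

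As a whole the 118 genes held 0.217% and 0.220% of the counts with IFNα, against 0.241% and 0.224% in controls. Their mean levels ran from 1.04 to 298 CPM with a median of 5.53 CPM, and 54 of them lay under 5 CPM.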

How the data were processed

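RNA-seq counts of 2 IFNα-treated and 2 control samples of mouse CD8+ T cells were used. The authors mapped the reads with HISAT2 and deposited whole-number counts per gene, made with featureCounts of Subread, not normalized. The counter's version, its strand setting and how it treated multi-mapped reads are not stated by any source used here. The processing notes name mm9, but 53548 of 54532 gene positions were those of GENCODE M21 on GRCm38, which is the build printed. The single-sample files held the same counts as the table (0 values differed).

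The members and gene lists were chosen with earlier results of these data known. Genes were kept by edgeR's filterByExpr (minimum of 10 counts, total of 15), which left 14417 genes and all 118 members, scaled by TMM (0.992 and 0.976 for IFNα, 0.997 and 1.04 for control), and tested by glmQLFit (robust) and glmQLFTest in edgeR 4.0.16 (R 4.3.3). Adjustment was by Benjamini and Hochberg over all tested genes. Genes were called at a log2 fold change over 1 in size with an adjusted p under 0.05. The study's methods name edgeR and these thresholds. Printed CPM is the count over the sample's total, and standard errors are the log2 fold change over the root of the F statistic. Intervals and floors (3 counts) cover counting error only.

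The genes named are the called members, those with a listed interferon-stimulated gene within 250 kb, the 10 highest by mean CPM, those beside the CPM threshold, and the neighbours and closest named relatives of called members. The other members that are named were picked as examples after their values were seen. Relatives were found with blastn (BLAST 2.17.0) on coding sequences of GENCODE M21, or on transcripts for 11 members without one, in place of the protein search that had been planned, for which no table was used here. A single-exon member was called a copy at an identity of at least 95% over at least 75% of its sequence. The test was tried on simulated counts drawn with the same spread in both groups. The real groups differed in spread, so that trial cannot vouch for the test on these samples. Alternatives were RLE scaling, library totals, other filters, DESeq2 1.42.0, limma-voom (limma 3.58.1), edgeR's likelihood ratio and exact tests, the adjusted p alone, a replicate block and leaving out each sample.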

Additional observations from a re-analysis of the deposited data

How the results depend on the processing

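The 5 called members remained called under every alternative except those with library totals only and with the filter at a mean CPM of 5. The count of members higher was 3 (Gm12185, Gm5431 and Gm4951) with library totals only, where Gm6904 and Gm12253 missed the adjusted p, and 3 with a filter at a mean CPM of 5, which tested 64 members and left out Gm12253. Without the filter, and with DESeq2, the likelihood ratio test and the exact test, it was 6, the added gene being Gm4070, and 1 member was lower, Gm47283. Leaving out 1 sample at a time gave 6 to 13 higher and 0 to 5 lower. Without control replicate 2 there were 13 higher and 5 lower, and without control replicate 1 there were 6 higher and 2 lower. The lone sample is then assumed to vary like the other group, and the cause was not tested. The share of all tested genes called was counted for the main fit only. The counts of members under the alternatives therefore do not show whether calls rose among the members in particular or over all genes. The sign of the log2 fold change turned, with no call, in 5 named members when 1 sample was left out. It ran from -0.60 (without control replicate 1) to 0.36 (without control replicate 2) in Gm10031. Without control replicate 2 and without control replicate 1 it was -0.49 and 0.019 in Gm10282, -0.88 and 0.14 in Gm10036, and -0.36 and 0.063 in Gm2000. In Gm10778 it was -0.03 without IFNα replicate 1, -0.19 without control replicate 2 and 1.59 without control replicate 1. Searching the ISRE core on the gene's strand alone left 3 members, against 5 on both.

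The labels number the samples of each group, but nothing says that equal numbers share an animal, culture or day. The correlation between the same-numbered differences was -0.31 over 10105 genes. With the replicate number as a block 6 members were higher and 1 lower, and with the crossed pairing, added after seeing the data, 8 were higher and 1 lower. Of those 8, Gm340 and Gm4707 have no listed interferon-stimulated gene within 250 kb. For the fits with a block, too, the share of all tested genes called was not counted. With 2 samples per group and 2 residual degrees of freedom, folds of members near 1 CPM rest on few counts a sample, and a missed threshold there does not show equal levels.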

Other observations

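Gm genes outside the members were looked at after their values were seen. Of 1811 tested ones, which are mostly pseudogenes and non-coding RNAs, edgeR called 12 higher (0.663%, beside 1.28% of all tested genes) and 1 lower (0.0552%, beside 0.139%) with IFNα. Gm12250, an IRG gene that RefSeq also calls Irgb10 and that the deposited table holds as a processed pseudogene, had 191 and 192 CPM with IFNα, against 87.8 and 96.4 CPM in controls (log2 fold change 1.10, adjusted p = 0.0124). It lies beside Igtp and Irgm2. Gm20559, a processed transcript on chromosome 6, had 351 and 345 CPM with IFNα, against 63.3 and 75.8 CPM in controls (log2 fold change 2.37, adjusted p = 0.00107).

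Gm6545, a processed pseudogene on chromosome 19, had 239 and 249 CPM with IFNα, against 2.13 and 12.3 CPM in controls, a log2 fold change of 5.15 (adjusted p = 0.0296), though its controls differed by a wide margin. Gm47242, a long non-coding RNA nearby, had 49.1 and 48.6 CPM with IFNα, against 1.04 and 4.01 CPM in controls. Gm43068, in the Oas cluster of chromosome 5, had 47 and 61 counts with IFNα, against 1 and 0 counts in controls. Gm16464 in the Trim30 cluster had 10.9 and 9.67 CPM with IFNα, against 0.69 and 1.18 CPM in controls. The 1 gene called lower was Gm42921 on chromosome 3, with 0.31 and 0.17 CPM with IFNα, against 2.82 and 2.83 CPM in controls (log2 fold change -3.48, adjusted p = 0.0245).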
